A study of Arabidopsis thaliana with 12 samples.

Results

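Among 22746 probe sets read in Arabidopsis thaliana seedling roots, 51 had a group mean at least 1.2 log2 above control with cellobiose and with chitin, but under 1 above control with oligogalacturonides (OGs). A probe set is the group of short oligonucleotides that reads 1 transcript on the array. The rule itself found 53, of which WRKY6 and AT3G12910 were left out by name, as were any of GLR2.8, BGLU27, AT2G36440, GRX480 and the calmodulin-like genes. The 51 were chosen by their measured changes from control on these arrays, so those changes are given here as a description with no test. There were 27 probe sets with 1 named gene, all matched to RefSeq, and 24 that the annotation used here does not name and that appear by probe set ID. No filter on low values was applied, so all 51 entered the fit reported here, and 48 of them had a mean of at least 5 log2 over the 12 arrays, the level an alternative fit required.

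The arrays came from roots of 7-day-old seedlings of the ecotype Col-0, harvested 25 min into treatment with cellobiose, chitin or OGs, or with no treatment in the controls. Each of the 4 groups held 3 arrays, labelled as biological replicates 1 to 3. Shoots were kept apart by growing roots through a nylon mesh. The submitters had screened the RNA samples by qRT-PCR for the marker WRKY30, and no dose is stated in the labels. P-values below measure the spread between these replicates. Chitin is named chito-oligomers in the design text.

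Pieces of wall polysaccharide act as alarm signals in plants. Cellobiose is the disaccharide repeat of cellulose, chito-oligomers come from fungal walls, and OGs come from the pectin of the plant's own wall. Known early steps after perception by receptor kinases are calcium influx, an oxidative burst, MAP kinase activity and, within minutes, transcription of genes for transcription factors, kinases, ubiquitin ligases and wall-related enzymes. LysM receptor kinases such as CERK1 perceive chitin, and wall-associated and other receptor kinases have been linked to OGs and cello-oligomers.

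Array medians lay between 6.5 and 6.60 log2, as a normalization between arrays gives. Among the tissue markers PYK10, an abundant root beta-glucosidase, was at 13.4 ± 0.08 in controls (SD, n = 3), and the root hair expansin EXPA7 at 9.68 ± 0.44. RCA, the Rubisco activase of green tissue, was also bright, at 11.1 ± 0.56 in controls against 10.1 ± 0.69 with cellobiose, 10.8 ± 0.19 with chitin and 10.7 ± 0.20 with OGs. It passed no limma test against control (adjusted p = 0.13, 0.695 and 0.656), and its part in the results was not tested. In whole roots, fewer cells of a type and less RNA per cell cannot be told apart.

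The median change of the 51 probe sets from control was 1.41 log2 with cellobiose (2.65-fold), 1.48 with chitin (2.79-fold) and 0.82 with OGs (1.77-fold). The change with OGs was never below control on the group mean. It ran from 0.08 to 0.99, and was under 0.5 in 5 probe sets, from 0.5 to 0.75 in 10, from 0.75 to 0.9 in 17 and above 0.9 in 19. Most of these probe sets thus lay near the upper bound that chose them. Changes with cellobiose ran from 1.2 to 2.41 and with chitin from 1.22 to 4.10.

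The thresholds cut through neighbouring values. Just inside the OGs bound were AT3G51450 at 0.99, 255080_at at 0.99 and AT1G33612 at 0.99, and just outside it 267537_at at 1.00, AT2G43320 at 1.01 and 256793_at at 1.01. For cellobiose, ICL at 1.2, AT1G67880 at 1.21 and 248164_at at 1.22 were just inside, with AT5G62150 at 1.19, 257363_at at 1.18 and 253204_at at 1.17 outside. The chitin bound admitted 266737_at at 1.22, AT5G59070 at 1.23 and AT2G15760 at 1.24, and left out AT3G25610 at 1.16, AT5G02230 at 1.16 and 262671_at at 1.14.

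**Figure D1:**
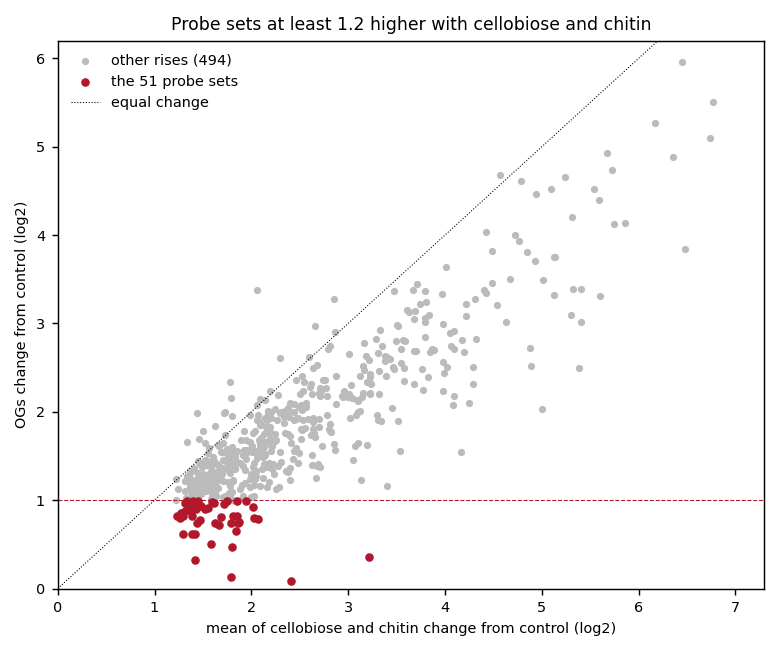
Each point is a probe set at least 1.2 log2 above control with both cellobiose and chitin. The x axis is the mean of those changes and the y axis the change with OGs, both in log2; the dashed line is the bound at 1 and the dotted line marks equal change. The 51 probe sets (red) lie under the bound at the low end of the 494 other rises (grey).

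Another 494 probe sets met the same bounds for cellobiose and chitin and were 1 or more above control with OGs. Their median changes were 2.17, 2.38 and 1.75 log2 with cellobiose, chitin and OGs. OGs reached 56.0% (median) of the mean cellobiose and chitin change in the 51, and 77.0% in the 494. In log2 terms the OGs change fell short of that mean by a median of -0.69 in the 51 and -0.51 in the 494. Of the 494, 47 had a mean change no larger than the median of the 51, and there OGs reached 84.6%. The rule fixes the direction of these differences, so no test is given. Control levels, which the rule does not bound, had a median of 6.70 in the 51 (from 3.46 to 10.2), 7.09 in the 494 and 6.58 over all probe sets. A control level under 5 was found in 29.4% of the 51, 18.4% of the 494 and 34.9% of all probe sets.

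The separation of the arrays varied among the 51. All 3 OGs arrays were above all 3 controls in 31 of the 51, where this held for 8.18% of all probe sets, and in the other 20 the groups overlapped. For cellobiose the count above all controls was 41 (9.78% of all probe sets) and for chitin 43 (10.1%). OGs arrays lay wholly below the cellobiose arrays in 22 (3.83% of all) and wholly below the chitin arrays in 29 (4.72% of all). The rule used these contrasts, so nothing is read from the counts. OGs arrays were below both other elicitors without overlap in 13 of the 51. In 3 of those 13 (253503_at, AT5G63130 and AT3G48450) they also overlapped controls, and in 10 they stood between controls and the other elicitors. The shares of all probe sets with these joint patterns were not counted, and nothing is read from these counts either. In the limma fit across all probe sets, 45, 48 and 13 of the 51 were called higher with cellobiose, chitin and OGs at an adjusted p under 0.05, against 4.73%, 4.97% and 3.18% of all probe sets; these counts too come from contrasts that chose the members.

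**Figure D2:**
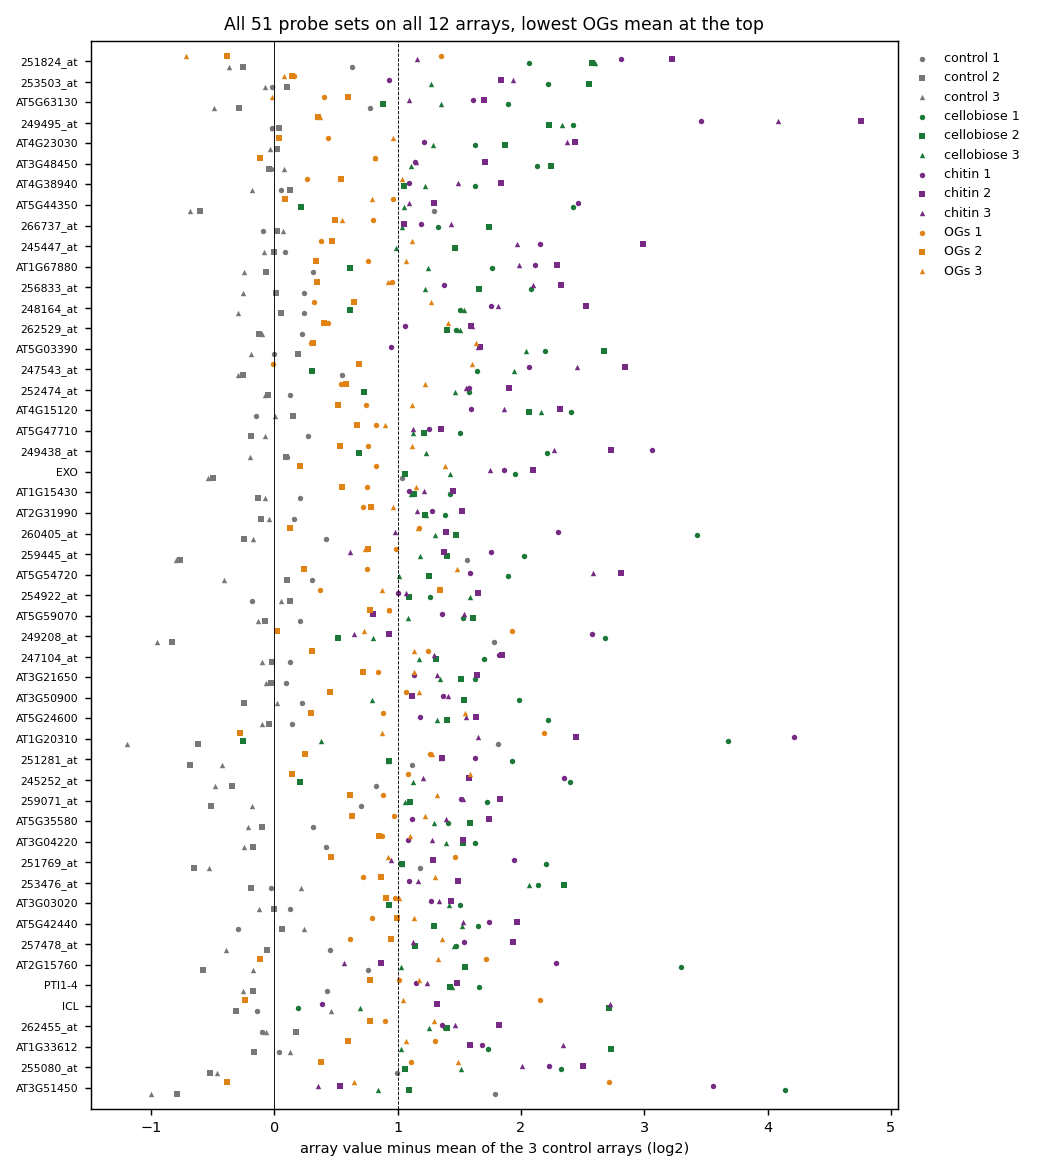
Rows are the 51 probe sets, by gene or by probe set ID, with the lowest mean OGs change from control at the top. Each point is 1 array, as its log2 value minus the mean of the 3 control arrays, coloured by group and shaped by replicate number; the dashed line marks 1. OGs points lie mostly between the controls and the other elicitors. In several probe sets, such as AT3G51450 and AT1G20310, circles (replicate 1) stand to the right in every group.

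An unnamed probe set, 249495_at, had OGs arrays near control and far below the other elicitors. There the controls read 4.02, 4.07 and 4.02, and OGs arrays 4.38, 4.39 and 4.41. Cellobiose arrays read 6.46, 6.27 and 6.37, and chitin arrays 7.5, 8.79 and 8.12. The groups did not overlap, and the order was control, OGs, cellobiose, chitin, with folds over control of 1.28, 5.02 and 17.1. At 253503_at, also unnamed and dim, controls were at 3.43, 3.56 and 3.38 and OGs arrays at 3.62, 3.6 and 3.54. Its cellobiose arrays were at 5.67, 6.01 and 4.73 and its chitin arrays at 4.39, 5.29 and 5.39, all above both of the former groups. The lowest OGs mean change, 0.08, belonged to 251824_at, whose OGs arrays did not resemble each other: 7.01, 5.27 and 4.94, against controls at 6.29, 5.41 and 5.29. Cellobiose put it at 7.73, 8.24 and 8.27 and chitin at 8.47, 8.89 and 6.82.

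Several of the named genes belong to families of immune signalling. AT3G48450, of the RIN4-like NOI family of small membrane-associated proteins, read 4.36, 4.34 and 4.46 in controls and 5.20, 4.27 and 5.21 with OGs. It read 6.52, 6.63 and 5.5 with cellobiose and 5.53, 6.10 and 5.53 with chitin, so that OGs overlapped controls and lay below both other elicitors. AT4G15120, a VQ-motif protein gene of a family that binds WRKY factors, was at 6.43, 6.73 and 6.58 in controls. It was at 8.99, 8.65 and 8.74 with cellobiose, 8.17, 8.90 and 8.44 with chitin and 7.32, 7.10 and 7.70 with OGs. Its OGs arrays stood apart on both sides, at 1.73-fold over control, against 4.64-fold with cellobiose and 3.80-fold with chitin.

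The kinase genes had OGs changes from 0.94 to 0.99, close to the bound. AT5G35580, a receptor-like cytoplasmic kinase, read 8.51, 8.09 and 7.98 in controls and 9.16, 8.82 and 9.41 with OGs, with changes of 1.43, 1.41 and 0.94 log2 for cellobiose, chitin and OGs. PTI1-4, a kinase related to tomato Pti1 and a partner of oxidative-signal kinases, read 9.09, 8.5 and 8.42 in controls, 10.33, 10.09 and 10.11 with cellobiose, 9.82, 10.15 and 9.91 with chitin and 9.68, 9.44 and 9.84 with OGs. The OGs arrays of both kinases were above all controls, below all cellobiose arrays and in overlap with chitin. AT5G42440, of the protein kinase superfamily, changed from a control mean of 7.03 ± 0.27 (SD, n = 3) by 1.49, 1.75 and 0.97 log2. AT3G21650, a B′ regulatory subunit of protein phosphatase 2A, the enzyme that opposes such kinases, read 8.09, 7.97 and 7.93 in controls and 8.83, 8.72 and 9.13 with OGs. It read 9.62, 9.51 and 9.34 with cellobiose and 9.13, 9.64 and 9.32 with chitin, and its OGs arrays overlapped no other group.

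Genes of leucine-rich repeat and C2-domain families were also present. AT1G33612, which encodes a leucine-rich repeat protein, read 5.43, 5.24 and 5.53 in controls and 6.70, 5.99 and 6.47 with OGs, against 7.13, 8.13 and 6.43 with cellobiose and 7.08, 6.98 and 7.74 with chitin. It sat at the OGs bound, and cellobiose replicate 3 was as low as the OGs arrays. AT3G04220, of the TIR-NBS-LRR class of intracellular immune receptors, rested at 5.19 ± 0.37 (SD, n = 3) and changed by 1.52, 1.30 and 0.94 log2 with cellobiose, chitin and OGs. AT5G47710, a C2-domain protein gene, changed by 1.28, 1.24 and 0.80 log2, with OGs arrays at 8.88, 8.72 and 8.95 between controls at 8.33, 7.86 and 7.98 and the other elicitors at 9.18 or above.

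Another group of members is known from growth, walls, transport and metabolism. EXO (EXORDIUM), an extracellular protein that promotes cell expansion and responds to brassinosteroid, read 9.94, 8.41 and 8.37 in controls, 10.86, 9.96 and 10.33 with cellobiose, 10.77, 11.00 and 10.65 with chitin and 9.73, 9.11 and 10.29 with OGs. Control replicate 1 was higher than 2 of the 3 OGs arrays, and chitin arrays lay above all OGs arrays. AT1G67880, of a family of N-acetylglucosaminyltransferases, was at 8.49, 8.11 and 7.92 in controls and 9.93, 8.79 and 9.41 with cellobiose. Its chitin arrays, at 10.28, 10.46 and 10.15, were above every other array, and OGs arrays were at 8.93, 8.51 and 9.23. AT2G31990, of the exostosin family of wall glycosyltransferases, had tight groups, at 7.49 ± 0.14, 8.76 ± 0.09, 8.81 ± 0.18 and 8.31 ± 0.13 (SD, n = 3) in controls and with cellobiose, chitin and OGs. AT5G59070, another glycosyltransferase gene, changed by 1.41, 1.23 and 0.88 log2.

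AT4G23030, of the MATE family of efflux transporters, was at a low level in controls, at 4.23, 4.23 and 4.18. With OGs it read 4.65, 4.25 and 5.17, below all cellobiose arrays (5.84, 6.08 and 5.5) and all chitin arrays (5.42, 6.65 and 6.58). ICL, the isocitrate lyase of the glyoxylate cycle, varied widely within groups, reading 8.14, 7.97 and 8.74 in controls, 8.47, 10.99 and 8.98 with cellobiose, 8.67, 9.60 and 11.00 with chitin and 10.44, 8.04 and 9.33 with OGs. Each elicitor group held 1 array well above its others, and no group was separate from any other. Its mean differences between elicitors are therefore smaller than the spread between replicates, which was 1.33, 1.17 and 1.2 (SD, n = 3) with cellobiose, chitin and OGs.

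Further named members had less specific annotations. AT5G63130, a PB1-domain protein gene, had the lowest OGs change among named genes. It read 8.22, 7.15 and 6.95 in controls and 7.84, 8.04 and 7.42 with OGs, and all cellobiose and chitin arrays were at 8.32 or above. AT4G38940, a kelch-repeat F-box protein gene, changed by 1.30, 1.47 and 0.61 log2 and its OGs arrays, at 6.96, 7.23 and 7.73, lay between controls and both other elicitors. AT5G03390 was higher with cellobiose (2.30 log2) than with chitin (1.42), and its OGs arrays read 4.59, 4.60 and 5.93 against controls at 4.29, 4.48 and 4.10. OGs replicate 3 was thus at the level of the chitin arrays (5.23, 5.96 and 5.94) while the other OGs arrays were near control. AT5G54720, an ankyrin-repeat protein gene, changed by 1.39, 2.33 and 0.82 log2, AT5G24600 by 1.64, 1.46 and 0.91, and AT5G44350 by 1.23, 1.62 and 0.61 with control replicate 1 at 7.42 against 5.52 and 5.44. The remaining named members, AT1G15430, AT3G50900 and AT3G03020, changed by 1.22 to 1.44 log2 with cellobiose, by 1.25 to 1.35 with chitin and by 0.82 to 0.97 with OGs. AT3G51450, AT1G20310 and AT2G15760 are described with the replicate numbers below.

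The 24 unnamed probe sets spanned much the same values. Their control means ran from 3.46 to 10.2 with a median of 6.94, and their median changes were 1.37 with cellobiose, 1.59 with chitin and 0.82 with OGs. OGs arrays were above all controls in 13 of them and overlapped controls in 11. At 249438_at chitin arrays read 7.39, 7.06 and 6.59, cellobiose arrays 6.54, 5.01 and 5.55 and OGs arrays 5.09, 4.86 and 5.44, over controls at 4.43, 4.42 and 4.13. At 247543_at chitin arrays read 11.1, 11.9 and 11.5, above cellobiose at 10.7, 9.33 and 11.0 and OGs at 9.01, 9.71 and 10.6. Both had all chitin arrays above every other array, and their OGs arrays overlapped those with cellobiose.

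Low OGs values were not equally spread over the replicate numbers. Set against the control array of the same number, the 51 probe sets had a median OGs change of 0.55 log2 in pair 1, 0.63 in pair 2 and 1.31 in pair 3. In pair 3, 30 of the 51 were 1.2 or more above control and 12 were under 1, where pairs 1 and 2 had 47 and 44 under 1. The cellobiose medians were 1.44, 1.56 and 1.49 and the chitin medians 1.15, 1.84 and 1.62. Pair 1 also had the lowest chitin values, with 16 of the 51 under 1. The OGs array was the lowest of the 3 elicitor arrays in 50, 48 and 32 of the 51 in pairs 1, 2 and 3, and in all pairs in 29. The rule put the OGs mean of these arrays below the other elicitor means, which favours this order. Its share over all probe sets was not counted, and nothing is read from it. In the 494 other rises the OGs medians were 1.26, 1.57 and 2.51, so pair 3 was the highest there too.

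**Figure D3:**
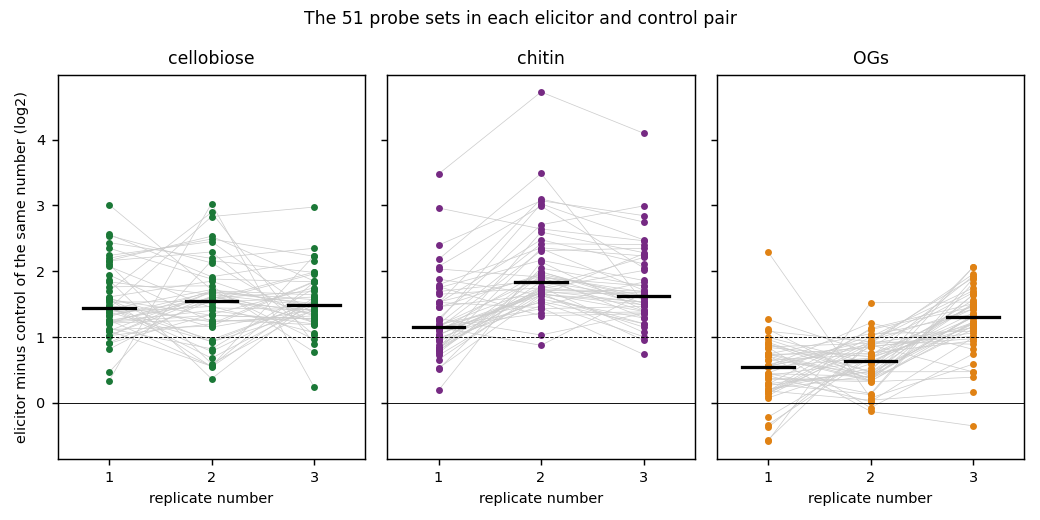
Each point is 1 of the 51 probe sets, with the elicitor array minus the control array of the same replicate number on the y axis (log2) and that number on the x axis. Grey lines join a probe set, black bars are medians and the dashed line marks 1. With OGs the median is 0.55 and 0.63 in pairs 1 and 2 and 1.31 in pair 3.

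Set against the mean of the controls instead, OGs arrays 1, 2 and 3 had medians of 0.84, 0.47 and 1.11 over the 51. OGs replicate 2 was the lowest of its group in 35 of the 51, a count whose share over all probe sets was not taken. OGs replicate 3 was the highest of its group in 34 of the 51 and in 32.1% of all probe sets. Cellobiose replicate 1 was the highest of its group in 35 of the 51 and in 29.0% of all probe sets. The rule used the means of these groups, so these counts describe the 51 only. Control replicate 1 was the highest control in 37 of the 51, where 33.3% of all probe sets had their highest control value on that array. This was not particular to the 51. Control arrays 1, 2 and 3 had medians of 0.22, -0.11 and -0.17 over the 51. Over the 494 other rises they had 0.44, -0.22 and -0.23. Leaving out OGs replicate 2 put the median OGs change at 0.96 and left 30 of the 51 under 1. Leaving out control replicate 1 put it at 0.95 and also left 30 under 1. Without OGs replicate 3 the median was 0.74, and without OGs replicate 1 it was 0.82. In all 12 omissions of 1 array, 11 of the 51 met every bound: AT4G23030, AT5G03390, AT4G15120, AT2G31990, AT3G21650, 251824_at, 253503_at, 249495_at, 245447_at, 256833_at and 262529_at. ICL met them in 6 of 12 and AT3G51450 in 5. Applied afresh to the whole table, the rule gave 31 probe sets without OGs replicate 2, 103 without OGs replicate 3 and 32 without cellobiose replicate 1.

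Cellobiose and chitin were then set against each other. The rule did not use their difference, but it put the same lower bound on both means, so that neither could be near control. The counts here thus describe the 51 and support nothing about likeness of the elicitors. The median absolute difference was 0.27 log2 in the 51 and 0.087 over all probe sets, and 5 of the 51 differed by 1 or more. None of the 51 was called (limma with the replicate number as a block, Benjamini-Hochberg over 22746 probe sets, adjusted p under 0.05), and 0.0176% of all probe sets were called. At an unadjusted p under 0.05 there were 10 of the 51, against 5.68% of all probe sets, and the same model without moderation of the variances gave 0 after adjustment and 6 before it. There were 22 higher with cellobiose and 29 higher with chitin, with a median difference of -0.05 log2, a balance that the equal bounds favour. The 95% interval of the difference lay within 1 log2 of 0 in 28 of the 51, and reached beyond 1 in the others.

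**Figure D4:**
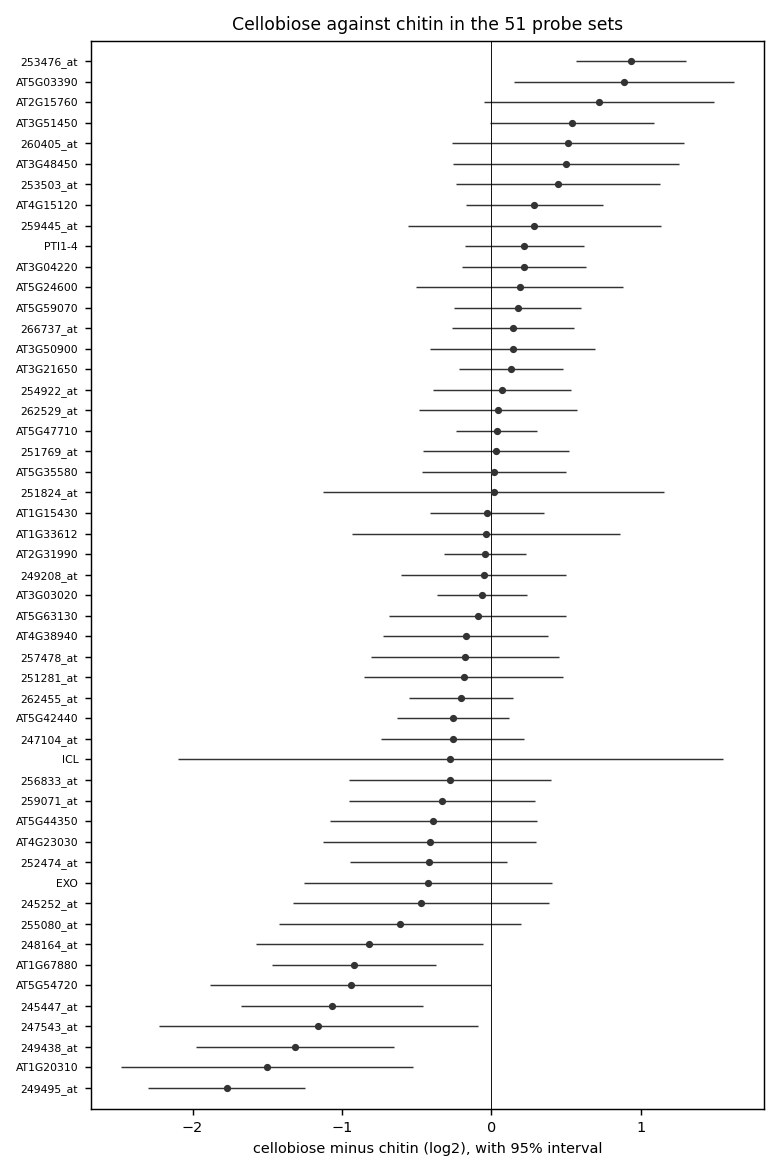
Points are the cellobiose minus chitin differences (log2) of the 51 probe sets and bars their 95% intervals from the limma fit. Values run from -1.77 at 249495_at to 0.93 at 253476_at, and 41 of the intervals include 0.

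The largest difference was at 249495_at, at -1.77 log2 for cellobiose minus chitin (95% interval -2.3 to -1.25; limma adjusted p = 0.103), with all chitin arrays above all cellobiose arrays. It passed without chitin replicate 1 (limma adjusted p = 0.0088), and over all alternatives the adjusted p ran from 0.0088 to 0.74. At the other end 253476_at read 8.65, 8.86 and 8.58 with cellobiose and 7.61, 8.0 and 7.67 with chitin, a difference of 0.93 (interval 0.57 to 1.3; limma adjusted p = 0.339). Cellobiose arrays were wholly above chitin arrays in 2 of the 51 (4.93% of all probe sets) and wholly below in 6 (5.13%).

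Among named genes, those leaning to chitin the most were AT1G20310 (-1.5, interval -2.48 to -0.53), AT5G54720 (-0.94, interval -1.88 to -0.00081), AT1G67880 (-0.92, interval -1.47 to -0.37), EXO (-0.42, interval -1.25 to 0.40) and AT4G23030 (-0.41, interval -1.13 to 0.30). Leaning to cellobiose were AT5G03390 (0.89, interval 0.15 to 1.62), AT2G15760 (0.72, interval -0.05 to 1.49), AT3G51450 (0.54, interval -0.01 to 1.09), AT3G48450 (0.50, interval -0.26 to 1.25) and AT4G15120 (0.29, interval -0.17 to 0.75). Adjusted p-values from limma for these 10 were between 0.72 and 0.882, so none passed. PTI1-4 and AT5G35580 had the narrower intervals of -0.18 to 0.62 and -0.46 to 0.50, while ICL, at -0.27, had an interval of -2.1 to 1.55.

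The replicate numbers gave a contrast outside the rule, since each group holds each number once. Of the 51, 4 differed between replicate numbers (limma F test, adjusted p under 0.05), against 0.897% of all probe sets, and 11 at an unadjusted p under 0.05 against 8.27%. These were AT3G51450 (adjusted p = 0.000286 by the limma F test), 249208_at (0.00238), AT1G20310 (0.0143) and 251769_at (0.0293). AT3G51450, a strictosidine synthase-like gene, read 7.94, 5.36 and 5.15 in controls, 10.29, 7.24 and 6.99 with cellobiose, 9.71, 6.68 and 6.50 with chitin and 8.86, 5.76 and 6.79 with OGs. Replicate 1 was thus above both other arrays by at least 2 log2 in each group, and the control of replicate 1 was brighter than the chitin arrays of replicates 2 and 3.

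AT1G20310 was also highest in replicate 1 of each group, at 6.80, 4.36 and 3.79 in controls, 8.67, 4.73 and 5.36 with cellobiose, 9.19, 7.43 and 6.64 with chitin and 7.17, 4.70 and 5.86 with OGs. Cellobiose replicates 2 and 3 lay within the range of the controls, and all chitin arrays but replicate 3 were above every control. For 249208_at the means over the 4 arrays of replicates 1, 2 and 3 were 10.9, 8.85 and 8.99, and for 251769_at 9.39, 8.22 and 8.29. AT2G15760 and AT5G44350 leaned the same way, with replicate means of 9.32, 7.73 and 7.99 and of 7.92, 6.38 and 6.69, but did not pass (adjusted p = 0.0774 and 0.0631 by the limma F test). Over all 51, 31 had their highest mean in replicate 1, where 32.0% of all probe sets did. By array median, the 494 other rises were like the 51. Both were highest on replicate 1 in controls and with cellobiose, on replicate 2 with chitin and on replicate 3 with OGs. What the replicate numbers stand for beyond separate biological replicates is not given in the labels.

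**Figure D5:**
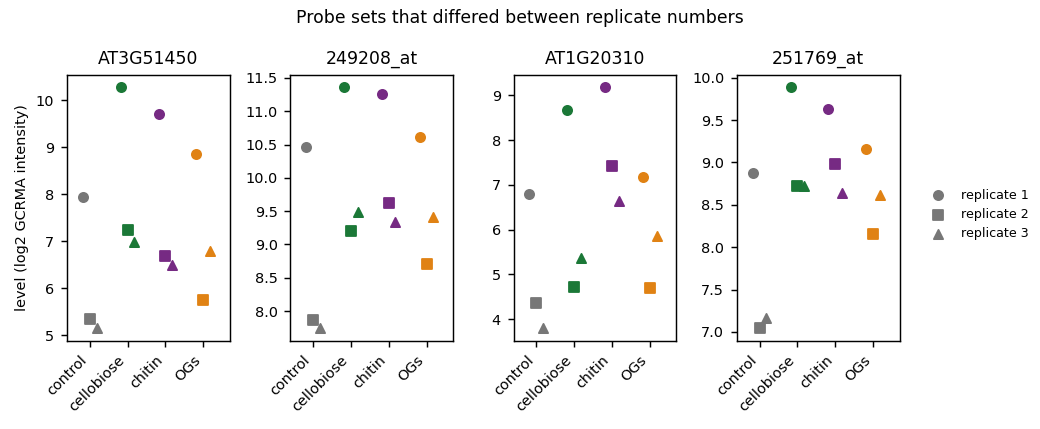
The 4 probe sets that differed between replicate numbers, with the log2 level on the y axis and the groups on the x axis; each point is 1 array, shaped by replicate number. Circles (replicate 1) stand above the other arrays in all 4 groups.

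AT3G51450 passed under all 15 alternatives, with adjusted p from 8.35e-06 to 0.0291 (limma F test, or an F test without moderation in 1 of them). The call of 249208_at was lost in the F test without moderation (adjusted p = 0.0986), that of AT1G20310 under 4 of 15 alternatives and that of 251769_at under 11. Of the 51, 2 to 6 passed when 1 array was left out.

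In the gene order of the RefSeq annotation of TAIR10.1, 31 protein-coding direct neighbours with a named probe set were found for 23 of the 27 named members, and none of them was itself a member. Of these neighbours 26 were within 0.5 log2 of control with every elicitor. The share of all probe sets within that range was not counted, so nothing is read from these counts. Among the neighbours only AT5G03380, next to AT5G03390, was 1.2 or more above control with both cellobiose and chitin. It was at 1.48 and 1.34 with them and at 1.02 with OGs. AT3G51440, next to AT3G51450 and of the same strictosidine synthase-like family, changed by -0.09, -0.12 and -0.08 log2, against 2.02, 1.48 and 0.99 for AT3G51450.

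Known genes of early immune and hormone signalling, tissue markers and reference genes were listed for comparison, and 27 of 151 listed genes had a named probe set. None of the 27 was a member. Of these, 10 rose and 1 fell with cellobiose, 11 rose and 1 fell with chitin, and 9 rose and 1 fell with OGs (limma, adjusted p under 0.05). Of all probe sets 4.73%, 4.97% and 3.18% were called higher with cellobiose, chitin and OGs, and 3.91%, 3.83% and 0.884% were called lower. All 5 measured early immunity markers rose with each elicitor: PUB22, PUB23 and PUB24, ubiquitin ligases that restrain immune signalling, SAG101 and the peroxidase gene AT1G14550, whose log2 changes were 4.75, 4.83 and 4.62 with an SE of 0.61. The OGs calls of PUB22, PUB23 and SAG101 were lost without control replicate 3 (limma adjusted p = 0.0721, 0.0533 and 0.134). Those of PUB22 and SAG101 were also lost without control replicate 2 (0.0638 and 0.104 by limma), and that of SAG101 without OGs replicate 1 or 3 (0.0678 and 0.0997). Of 5 measured perception and signalling genes BIK1, a receptor-associated kinase, rose with all elicitors, while CORK1, a cello-oligomer receptor kinase, FER, EFR and PBL27 did not pass. CORK1 was at 8.18 ± 0.09 in controls and 8.16 ± 0.29 with OGs (SD, n = 3). ZAT18, a C2H2 zinc finger gene, rose with chitin by 2.19 ± 0.34 log2 (SE; limma adjusted p = 0.00424) and was at 1.14 ± 0.34 with both cellobiose (0.0808) and OGs (0.114). STZ, known from salt and drought responses, rose with cellobiose and chitin by 3.18 and 3.99 log2 and was at 2.8 with OGs (limma adjusted p = 0.0501), and AT2G28200, another zinc finger gene, fell with each elicitor. The cellobiose call of STZ was lost under 5 of 16 alternatives, which were leaving out control replicate 2 or 3 or cellobiose replicate 1 or 3 and the fit without moderation (adjusted p up to 0.0969), and its chitin call in the fit without moderation (0.0509). STZ passed with OGs under 4 of 16, one of them without control replicate 1 (limma adjusted p = 0.00203). For AT2G28200 the falls with cellobiose and OGs did not pass with no replicate block (limma adjusted p = 0.0516 and 0.0896), and the call ended under 4 of 16 alternatives with cellobiose, 8 of 16 with OGs and none of 16 with chitin. The call of ZAT18 with chitin ended with no replicate block (adjusted p = 0.217). Of 5 measured WRKY genes 3 rose with every elicitor, and WRKY6, left out of the members by name, had changes of 1.41, 1.69 and 0.99. Neither measured gene of the AP2/ERF and ethylene list, the 3 reference genes, the 2 root hair markers, PYK10 nor RCA passed with any elicitor. No gene of the jasmonate, endodermis or vascular lists had a named probe set.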

How the data were processed

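The authors deposited log2 probe set values of Affymetrix ATH1 arrays, normalized with GCRMA per the series' design text; Affymetrix Expression Console is named in the submitters' processing notes without a version. The table holds 22810 rows, of which 64 Affymetrix control rows were kept out and 22746 were used. Scanner files were not used here, so background cannot be judged per array, and the number of arrays limits the precision. Genes were named through GEO's platform annotation and RefSeq (13513 probe sets with 1 gene, 503 with several and not named, 8730 unnamed). The rule and the gene lists were chosen with earlier results of these data known.

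One linear model with treatment and replicate number as a block was fitted to all 12 arrays with limma 3.58.1 in R 4.3.3, two-sided, with Benjamini-Hochberg adjustment over all probe sets. The block follows the design text, which takes ratios per sample pair. Deviations of same-numbered arrays from their group means correlated at -0.17 to 0.59, over 0.1 in 11 of 18 pairs of arrays. No source says that same-numbered arrays shared seedlings or a day, so p-values measure the spread between these samples. In data simulated for cellobiose against chitin over 22746 probe sets, 28 and 46 of 50 changes of 0.5 and 1 log2 were recovered. The recovery was not counted for the members alone, and their replicates were more spread. Their median SD was 0.43 with cellobiose and 0.37 with chitin, against 0.12 and 0.13 over all probe sets. The simulation therefore cannot say how many such changes would be called among the members. Named members were, among those with 1 gene, the 12 with the largest lower change, the 8 with the lowest OGs change, the 5 with the largest cellobiose and chitin difference each way, called ones, ones with a symbol and ones at the thresholds; AT2G31990, AT3G04220, AT5G47710, AT1G15430, AT3G50900 and AT3G03020 and the probe sets without a gene were added after their values were seen. Alternatives were no block, no variance moderation, a mean level of at least 5, a variance trend, other bounds and scalings, and leaving out arrays.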

Additional observations from a re-analysis of the deposited data

How the results depend on the processing

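The number of probe sets that meet the rule was 51 as reported. It was 102 with a bound of 1.0 for cellobiose and chitin, 9 with 1.5, and 5 with OGs under 0.5. Scaling to the 24 poly-A spike-in probe sets gave 47, of which only 16 were among the 51: it raised the median of all probe sets by 0.34, 0.17 and 0.20 log2 with cellobiose, chitin and OGs, and left 16 of the 51 under 1 with OGs. Group medians gave 50, with 22 shared. Leaving out 1 array gave 31 to 103 and leaving out 1 replicate number from every group 29 to 113. The cause was not tested. Of the 51, 0 were called between cellobiose and chitin as reported, with no replicate block, without variance moderation and in the fit of those 6 arrays alone, and 0 to 1 without 1 array, the 1 being 249495_at without chitin replicate 1. Between replicate numbers 4 were called, 2 to 6 without 1 array and 1 without variance moderation. Listed genes called were 11, 12 and 10 with cellobiose, chitin and OGs, and 10, 11 and 9 with no replicate block. Without 1 array they were 9 to 12, 12 to 13 and 6 to 11, and the fit without moderation called 3 with OGs; the 6 was without control replicate 3. No value followed under the alternatives run changed sign. Those followed were the cellobiose minus chitin differences of the named genes leaning most each way and of the probe sets at either extreme. Changes from control were followed for the listed genes called with any elicitor. The differences of ICL and the other named genes were not followed, so their signs may depend on the arrays used.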
